A study of Homo sapiens with 8 samples.

Results

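U373 cells given progesterone together with RU-486 were set against cells given vehicle. The comparison rests on 4 of the 8 arrays of the study, the 2 titled for the combined treatment and the 2 titled for vehicle, and on 18417 genes, each represented by its brightest probe set. U373 is an established human astrocytoma line. After a period in medium with hormone-stripped serum, the cells received vehicle, 10 nM progesterone, 1 µM RU-486 or both at those same doses, and RNA was taken 12 h later. RU-486 is mifepristone, an antagonist of the progesterone receptor that also blocks the glucocorticoid receptor. Every group, vehicle included, shared the hormone-stripped serum, and the vehicle itself is not named in the labels. The sample descriptions and source names give RU-484 where the titles and the treatment protocol give RU-486, and the 2 names were read as 1 drug. The labels call the replicates biological but name no separate cultures. The p-values therefore reflect array-to-array spread, which may be technical. The line is a single culture model with no other cell type of a tumour.

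Progesterone acts through a nuclear receptor, encoded by PGR, which switches target genes on or off, and RU-486 competes for the same pocket. A separate programme is the amino acid response. When uncharged tRNA builds up or protein folding in the endoplasmic reticulum fails, translation is slowed and the transcription factor ATF4 accumulates, which then switches on genes for amino acid synthesis, import and tRNA charging. Long-chain fatty acids reach the mitochondrial matrix by the carnitine shuttle, in which CPT1A makes acylcarnitines and the carrier SLC25A20 takes them across the inner membrane.

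The deposited values are log2 signals after background correction, normalisation and summary of probes, so differences below are on the log2 scale, with SE from a limma fit over all 8 arrays. The array medians lay between 6.93 and 7.02. Replicates differed most for progesterone alone, where their per-gene differences had an SD of 0.35, against 0.18 in vehicle and 0.17 in the combination. Signals of 341 olfactory receptor genes, rarely transcribed outside the nose, had a median of 4.64 and a 95th percentile of 6.22, which is used as the array's background. Of 10 astrocyte and glioma markers, 8 lay above this background, among them vimentin (VIM) at 13.37, CD44 at 13.05, SOX2 at 12.01 and S100B at 9.59. GFAP was measured at 7.54 ± 0.17 (SD, n = 8). The markers ALDH1L1, at 6.19, and AQP4 lay below the background. Of the marker lists of other cell types, 1 of 7 genes of microglia and leukocytes, 1 of 5 of endothelium, 2 of 5 of oligodendrocytes, 3 of 5 of epithelium and 4 of 5 of neurons lay above it. Of these the neuronal microtubule protein MAP2 stood at 9.71 and the keratin KRT18 at 9.62, and PTPRC, the leukocyte antigen CD45, stood at 3.44.

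Between the combination and vehicle no single gene passed the test. Of 18417 genes, 0 (0%) passed a limma adjusted p of 0.05, and the smallest adjusted p was 0.205. This fit, which also gave each SE and adjusted p below, pooled the spread of all groups. The progesterone pair, whose replicates differed most, is part of that spread but not of the comparison. The smallest limma adjusted p was 0.0902 on the combination and vehicle arrays alone and 0.0523 without the progesterone group. In both fits 0 genes passed. At an unadjusted p under 0.05 lay 2432 genes, 1274 higher (6.92%) and 1158 lower (6.29%). Large differences were mostly downward. A difference over 1.5-fold with no overlap between the arrays was found for 27 higher genes (0.147%) and 676 lower genes (3.67%). Among genes with a mean level above the background, described above, these were 21 and 644. The 27 included 2 olfactory receptors and also GPC3, which had a mean level of 5.41, within the background. The bulk of genes leaned slightly the other way: the median difference was 0.07 and 67.5% of genes lay above 0, against which the list medians below are to be read, as list counts are against 6.92% and 6.29%. In bulk RNA, fewer cells of a kind and less RNA per cell cannot be told apart. Single arrays weighed on these counts. The 2432 genes became 613 without vehicle replicate 2, 628 without combination replicate 1 and 4712 without either progesterone replicate, and the 27 higher genes became 59 without vehicle replicate 1 and 65 without combination replicate 2. None of the genes named below as higher or lower passed the adjusted test.

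**Figure D1:**
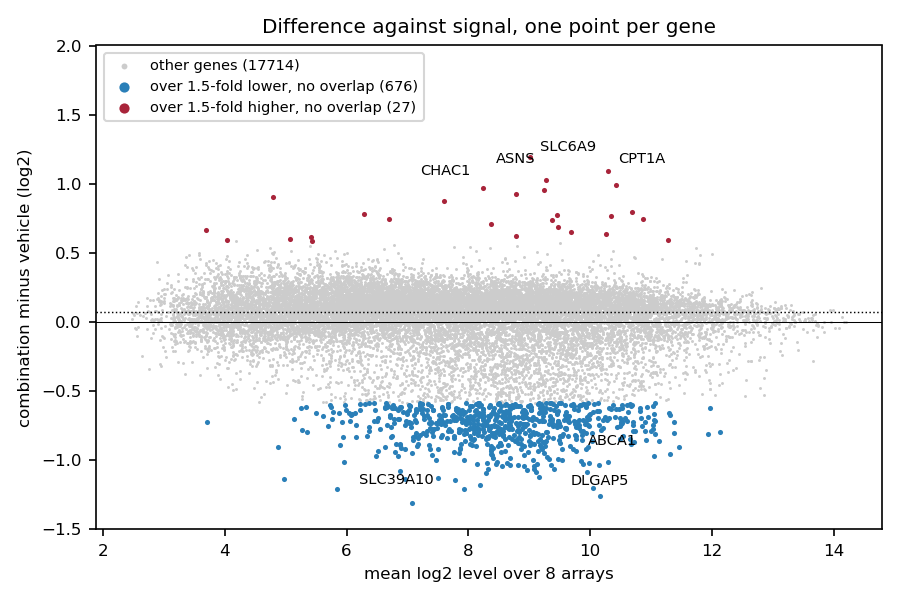
Difference between combination and vehicle (log2, vertical axis) against the mean log2 level over 8 arrays (horizontal axis), 1 point per gene. The 27 genes over 1.5-fold higher (red) are few and spread over the range of levels, and the 676 lower genes (blue) gather at middle levels. The dotted line marks the median of all genes, 0.07.

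Most genes with the smallest p on the higher side were those of the amino acid response and of the carnitine shuttle. CHAC1, an ATF4 target that degrades glutathione, had the smallest p. It measured 7.86 and 7.81 on the vehicle arrays and 8.83 and 8.78 on the combination arrays, a difference of 0.97 ± 0.10 (SE). The groups lay far apart compared with the gap between replicates. ASNS, asparagine synthetase, measured 8.81 and 8.85 in vehicle and 9.84 and 9.87 in the combination, higher by 1.03 ± 0.12. PCK2, the mitochondrial phosphoenolpyruvate carboxykinase, went from 8.45 and 8.29 to 9.29 and 9.30, a difference of 0.93 ± 0.11. For these 3 genes the limma adjusted p was 0.205. That both treated arrays lay above both controls was a condition for naming them, met by 42.7% of all genes. SLC6A9, the glycine transporter GLYT1, gave the largest difference of the 4, at 1.19 ± 0.16 (2.29-fold, limma adjusted p = 0.291), from 8.54 and 8.40 in vehicle to 9.70 and 9.63. NUPR1, a small stress-induced chromatin protein, had means of 9.95 ± 0.07 (SD, n = 2) in vehicle and 10.94 ± 0.08 (SD, n = 2) in the combination, higher by 0.99 ± 0.14 (limma adjusted p = 0.358). ATF4 itself was higher by 0.46 ± 0.08, from 10.58 and 10.54 to 11.09 and 10.95 (limma adjusted p = 0.374).

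A composite DNA element bound by ATF4 with C/EBP partners is usually written TGATGNAA. It was searched on both strands in RefSeq promoter windows (GRCh38.p14, 250 bases before to 50 after the start), with no other motif. It was present in 28.6% of 21 promoters of the amino acid response list, 30.0% of 20 amino acid transporters and 43.8% of 16 cytosolic tRNA synthetases, against 3.59% of the 14239 measured genes with a window and 4.46% of all 27305 genes with one. It was in 7.14% of 14 mitochondrial tRNA synthetases, 11.1% of 9 enzymes of serine, glycine and one-carbon synthesis, 0 of 29 genes of fatty acid oxidation and 8.0% of 275 olfactory receptors. Of the 27 genes over 1.5-fold higher, 17 had a window and 5 of these held it (AARS1, ASNS, CARS1, CHAC1 and SLC1A4). SLC6A9, PCK2, PSAT1, PHGDH, GDF15, TRIB3, CPT1A and SLC25A20 were among the 12 without it. The sites below, 5′ to 3′ on the strand of the gene with the element or its reverse complement in capitals, are shown because they mark which genes of the response carry it, with differences both large and near 0. They are, in order, chr15:40953242-40953289 (plus strand), chr7:97872449-97872496 (minus), chr19:46784884-46784931 (minus), chr16:70289666-70289713 (minus), chr7:30594825-30594872 (plus), chr19:33374051-33374098 (plus) and chr19:48755450-48755497 (plus).
CHAC1: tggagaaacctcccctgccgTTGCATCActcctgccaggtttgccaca
ASNS: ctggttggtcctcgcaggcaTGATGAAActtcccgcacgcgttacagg
SLC1A5: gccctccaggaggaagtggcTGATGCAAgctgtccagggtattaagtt
AARS1: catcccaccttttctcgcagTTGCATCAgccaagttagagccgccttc
GARS1: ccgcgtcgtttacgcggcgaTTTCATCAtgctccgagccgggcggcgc
CEBPG: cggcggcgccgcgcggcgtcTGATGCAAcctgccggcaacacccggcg
FGF21: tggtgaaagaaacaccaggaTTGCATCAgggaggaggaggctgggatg
CHAC1 differed by 0.97, ASNS by 1.03, SLC1A5 by 0.48, AARS1 by 0.59 and GARS1 by 0.49. CEBPG, a C/EBP family member, stood at -0.02 and FGF21, a hormone, at 0.04. A match is a description of these letters and shows neither binding nor a cause.

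Of the 23 measured genes of the ATF4 and amino acid response list, 20 lay above 0, with a median of 0.33 against 0.07 over all genes. At an unadjusted p under 0.05, 16 were higher and 0 lower. Beside the genes above these included GDF15, a secreted stress cytokine, at 0.95 ± 0.22, TRIB3, a pseudokinase, at 0.73 ± 0.15, SESN2, an inhibitor of growth signalling, at 0.54 ± 0.09, and DDIT3, the pro-apoptotic factor CHOP, at 0.33 ± 0.10. The lowest member was KLHL24 at -0.46 ± 0.21. Of 13 enzymes that make serine, glycine, one-carbon units and proline, 6 were higher and 0 lower at that p (median 0.20). PSAT1 and PHGDH, which act at successive steps of serine synthesis, were higher by 0.77 ± 0.13 and 0.74 ± 0.14, and the mitochondrial folate enzyme MTHFD2 by 0.53 ± 0.11.

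Import and tRNA charging followed the same pattern. Of 24 amino acid transporters 10 were higher and 0 lower at an unadjusted p under 0.05 (median 0.17). After SLC6A9 came SLC1A4, a carrier of alanine and serine, at 0.77 ± 0.12, SLC7A1, a cationic amino acid carrier, at 0.51 ± 0.12, and SLC7A5, the large neutral amino acid carrier, at 0.42 ± 0.09. SLC38A2 stood at -0.35 ± 0.16. Of 19 cytosolic aminoacyl-tRNA synthetases, which load amino acids onto tRNA, 8 were higher and 0 lower (median 0.14). YARS1 measured 10.47 and 10.32 in vehicle and 11.30 and 11.09 in the combination, higher by 0.80 ± 0.11, and CARS1 was higher by 0.62 ± 0.10. NARS1 stood at 0.01 and EPRS1 at -0.38 ± 0.17. The 16 mitochondrial synthetases, kept as a separate list, had 0 higher and 0 lower at that p and a range of -0.03 to 0.19 (median 0.10).

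The protein-folding side of endoplasmic reticulum stress was not higher as a group. The 23 chaperones and folding factors had a median of 0.06, with 2 higher (8.70%, where all genes had 6.92%) and 4 lower (17.4%, where all genes had 6.29%) at an unadjusted p under 0.05. The higher members, a share near that of all genes, were XBP1, a transcription factor of the unfolded protein response, at 0.36 ± 0.08, and HERPUD1, a degradation factor, at 0.41 ± 0.12. HSPA5, the main chaperone BiP, stood at 0.11 ± 0.08, from 13.12 and 13.08 to 13.24 and 13.18. HSP90B1 was lower by 0.42 ± 0.12 and DNAJC10, a disulfide reductase, by 0.74 ± 0.23.

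**Figure D2:**
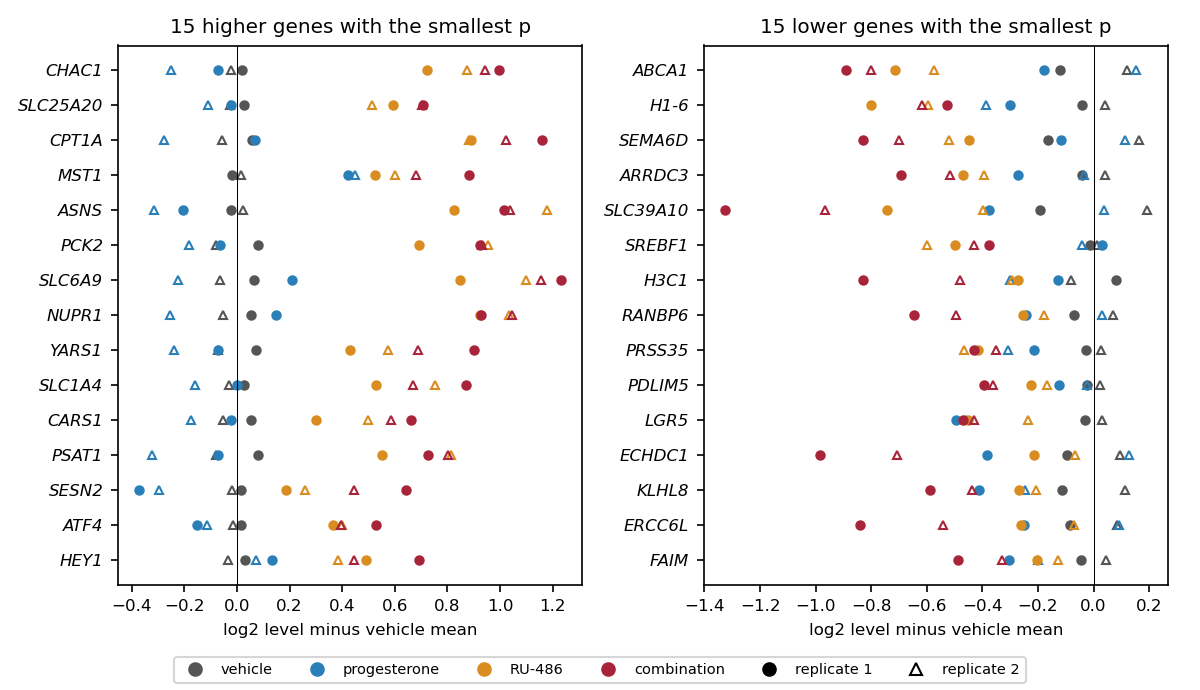
Levels of the 15 higher (left) and 15 lower (right) genes with the smallest p, as log2 level minus the vehicle mean, for all 8 arrays; circles are replicate 1 and triangles replicate 2. In the left panel RU-486 and combination arrays lie on the same side and the progesterone arrays lie above both vehicle arrays for 2 of the 15 genes only, MST1 and HEY1.

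Fatty acid entry into mitochondria was the other group at the top of the list. CPT1A measured 9.87 and 9.76 in vehicle and 10.97 and 10.84 in the combination, higher by 1.09 ± 0.13 (2.13-fold, limma adjusted p = 0.205). SLC25A20 went from 8.10 and 8.05 to 8.78 and 8.78, higher by 0.71 ± 0.08 (limma adjusted p = 0.205). The rest of fatty acid oxidation did not share this size. Among 34 genes of the pathway and of PPAR targets, 6 were higher and 3 lower at an unadjusted p under 0.05, with a median of 0.12. CPT2, the inner-membrane partner of CPT1A, stood at 0.18 ± 0.10, the PPAR target PDK4 at 0.01 ± 0.18 and the receptor PPARA at 0.02 ± 0.08. The lower ones were the coactivator PPARGC1A at -0.54 ± 0.21, EHHADH and ACADM, the medium-chain dehydrogenase, at -0.44 ± 0.14 (-0.28 without combination replicate 1).

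Of the remaining higher genes, MST1, which encodes a protein related to hepatocyte growth factor, measured 5.83 and 5.86 in vehicle and 6.73 and 6.53 in the combination. Its vehicle arrays lay within the background, so it entered the named genes only through the treated arrays, and no size of its difference is given. HEY1, a transcriptional repressor downstream of Notch, was higher by 0.57 ± 0.10 (limma adjusted p = 0.374). The list of Notch, Hedgehog and Wnt targets had 1 higher and 1 lower of 25 at an unadjusted p under 0.05, with a median of 0.17 and 22 above 0. VEGFA, the vascular growth factor, was higher by 0.51 ± 0.10, from 8.93 and 8.88 to 9.45 and 9.37. HMOX1, heme oxygenase, was higher by 0.64 ± 0.18, and among 18 targets of the oxidant sensor NRF2 3 were higher and 0 lower at that p (median 0.15). Genes that feed back on ERK signalling had 6 higher and 1 lower of 15 (median 0.19), with the transcription factors ETV4 and ETV5 at 0.54 ± 0.14 and 0.44 ± 0.13. Without combination replicate 1, ETV4 stood at 0.35.

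**Figure D3:**
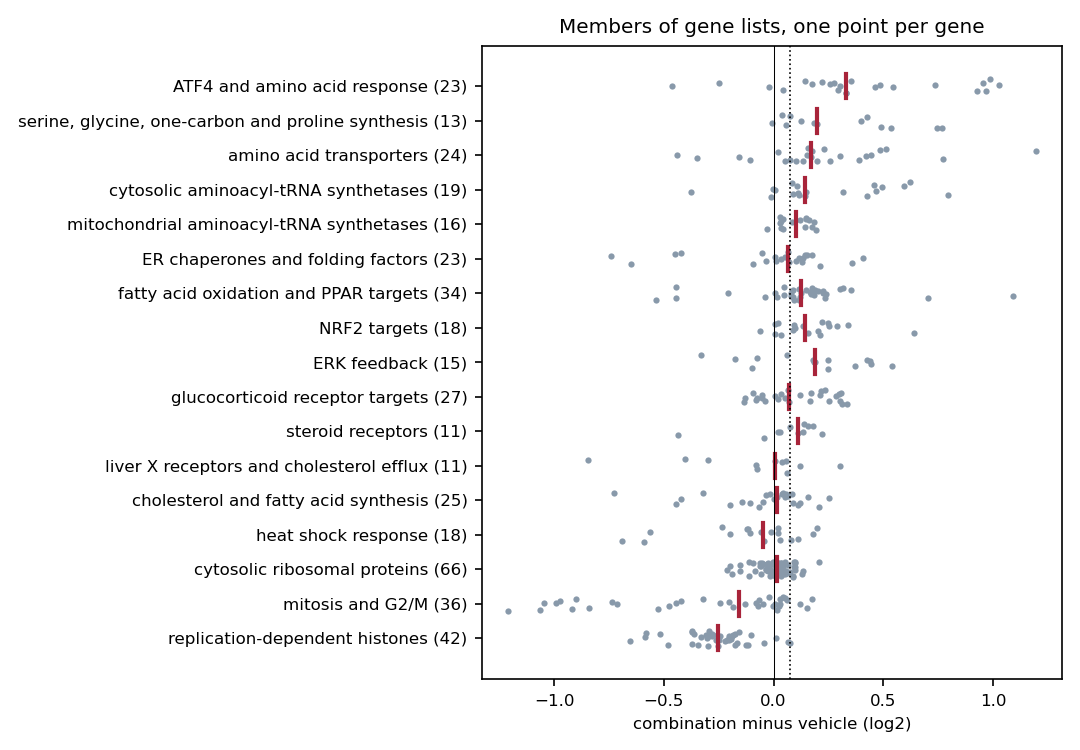
Difference between combination and vehicle (log2) for the members of 17 gene lists, 1 point per gene, with the number of measured members in brackets. Red bars mark list medians, from 0.33 for the ATF4 list to -0.25 for histones, and the dotted line the median over all genes, 0.07.

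Receptors for the added steroids showed no large differences apart from the glucocorticoid receptor. PGR measured 4.59 and 4.44 in vehicle and 4.57 and 4.49 in the combination, a difference of 0.02 ± 0.14, near the median of the background. NR3C1, the glucocorticoid receptor, measured 10.07 and 10.17 in vehicle and 9.61 and 9.76 in the combination, lower by 0.44 ± 0.12 (limma adjusted p = 0.374). With the within-group score described further on as covariate, NR3C1 was lower by 0.27. It was the 1 of 11 steroid receptor genes with an unadjusted p under 0.05. The membrane-associated progesterone-binding protein PGRMC2 and the membrane progestin receptor PAQR8 stood at 0.08 ± 0.10 and -0.04 ± 0.10. Of 27 glucocorticoid receptor targets 6 were higher and 0 lower at that p, with a median of 0.07, the same as over all genes. They included the clock gene PER1 at 0.33 ± 0.09, the kinase SGK1 at 0.31 ± 0.09 and TSC22D3, the classical glucocorticoid-induced gene GILZ, at 0.30 ± 0.12, while KLF9 stood at -0.08.

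On the lower side the smallest p belonged to ABCA1, followed by H1-6, SEMA6D, ARRDC3 and the zinc importer SLC39A10. ABCA1, which loads cholesterol onto apolipoproteins, measured 10.02 and 10.26 in vehicle and 9.25 and 9.34 in the combination, lower by 0.85 ± 0.14 (1.80-fold, limma adjusted p = 0.374). SREBF1, a regulator of lipid synthesis and like ABCA1 a liver X receptor target, measured 10.78 and 10.81 against 10.41 and 10.36, lower by 0.40 ± 0.08. MYLIP, which marks the LDL receptor for degradation, was lower by 0.30 ± 0.09, and these 3 were the members of the 11-gene liver X receptor list with an unadjusted p under 0.05, all lower. ABCG1, another efflux pump of that list, stood at -0.07, and the list as a whole had a median of 0.01, with 6 of 11 above 0. Of 25 genes of cholesterol and fatty acid synthesis 0 were higher and 4 lower at that p (median 0.01), the largest being STARD4, a sterol carrier, at -0.73 ± 0.17. SLC39A10 measured 8.05 and 8.44 in vehicle and 6.92 and 7.28 in the combination, lower by 1.15 ± 0.21 (2.21-fold, limma adjusted p = 0.374). Metallothioneins and other zinc genes, 15 in all, had a median of 0.14, with 11 above 0. At an unadjusted p under 0.05, 0 were higher and 2 lower, the other being the exporter SLC30A1 at -0.38 ± 0.16, which was -0.19 without combination replicate 1.

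Further lower genes were the guidance ligand SEMA6D, at -0.76 ± 0.13, the receptor-trafficking adaptor ARRDC3, at -0.60 ± 0.11, and the testis linker histone H1-6, at -0.57 ± 0.10. ECHDC1, a metabolite-proofreading decarboxylase, was lower by 0.85 ± 0.18 and LGR5, a receptor that strengthens Wnt signalling, by 0.45 ± 0.09. Differences of RANBP6, PRSS35, PDLIM5, KLHL8, ERCC6L and FAIM ran from -0.69 to -0.38. Each had a limma adjusted p of 0.374. That the arrays did not overlap between the groups was a condition for naming them, met on the lower side by 18.8% of all genes.

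Replication-dependent histones, made for new chromatin in S phase, were lower almost throughout. Of 42 measured genes, 39 lay below 0, the median was -0.25, and 19 were lower and 0 higher at an unadjusted p under 0.05. Arrays did not overlap for 36 of them, all lower, where 18.8% of all genes were lower and 42.7% higher in that way. H3C1 measured 9.54 and 9.38 in vehicle and 8.63 and 8.98 in the combination, lower by 0.66 ± 0.13, and the linker histone H1-3 was lower by 0.48 ± 0.13. Probe sets of these near-identical genes can share target RNA, so single members are uncertain. The histone median was -0.17 for RU-486 alone and -0.12 for progesterone alone against the same vehicle arrays. Genes of G1/S and DNA replication, active in the same phase, had a median of 0.03, with 0 higher and 1 lower of 32 at that p.

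Genes of mitosis and G2/M split into members near 0 and a tail of lower ones. Of 36, 25 lay below 0 (median -0.16), and 9 were lower and 0 higher at an unadjusted p under 0.05. DLGAP5, a spindle protein, measured 9.58 and 9.87 in vehicle and 8.55 and 8.77 in the combination, lower by 1.06 ± 0.26. KIF11, a spindle motor, was lower by 0.92 ± 0.29 and the checkpoint kinase BUB1 by 0.42 ± 0.10, while the kinase PLK1 stood at 0.06 and CCNB1, cyclin B1, at -0.07. In the progesterone pair DLGAP5 measured 9.49 and 10.35, a gap between replicates almost as large as the difference between the groups.

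That gap holds for the 676 lower genes as a body. Their mean level minus the mean of all genes was 0.89 and 1.32 on the vehicle arrays and 0.55 and 1.45 on those of progesterone. It was 0.65 and 0.88 on the RU-486 arrays, and both combination arrays were lower still at 0.24 and 0.43. The progesterone replicates differed by a median of -0.83 over these genes, beside the -0.73 between combination and vehicle, and 662 of them (97.9%, against 37.0% of all genes) were lower in replicate 1. Replicate 1 was also the lower for 96.7% of them in vehicle (median -0.46), 96.0% in RU-486 (median -0.25) and 85.7% in the combination (median -0.18). A single direction held 66.4% of the variance within groups, on which vehicle scored -3.71 and -18.7, progesterone 21.8 and -24.7, RU-486 4.23 and -3.84, and both steroids together 16.7 and 8.11. With that score as covariate the median of the 676 genes was -0.29 in place of -0.73, and 29 of them stayed past 1.5-fold. The score was computed from all genes, these included, and was itself higher in the combination than in vehicle. As covariate it therefore also takes up group differences that lie along it, so values with it are no independent check. Counted anew over all genes, 38 were lower without overlap with the covariate, 198 without vehicle replicate 2 and 1061 without vehicle replicate 1. The part of this direction in the lower genes was not tested beyond these values.

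**Figure D4:**
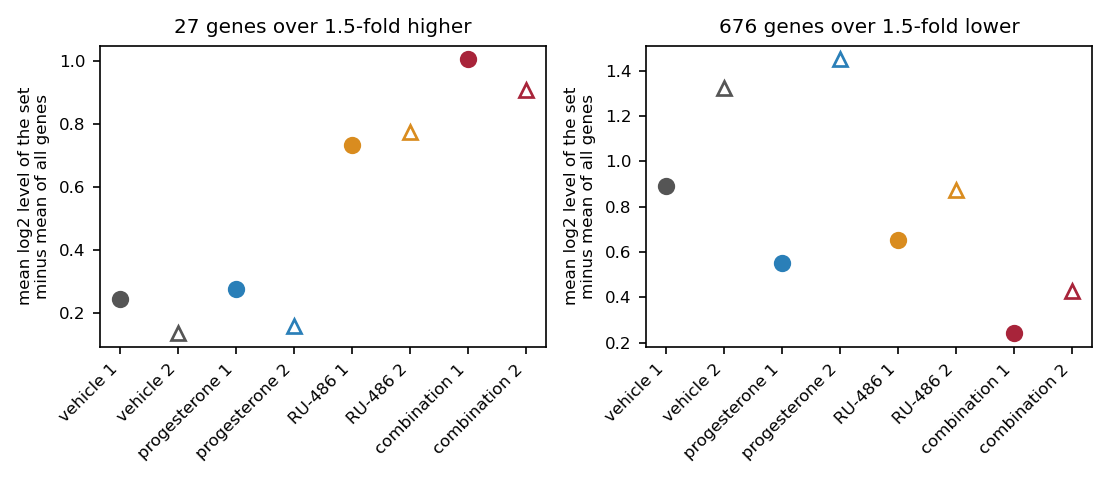
Mean log2 level of the 27 higher genes (left) and the 676 lower genes (right) on each of the 8 arrays, minus the mean of all genes on that array; circles are replicate 1 and triangles replicate 2. In the left panel the replicates lie close together, and in the right panel progesterone replicates 1 and 2 lie at 0.55 and 1.45.

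Replicates lay closer together over the 27 higher genes. Their mean minus that of all genes was 0.24 and 0.14 on the vehicle arrays, 0.28 and 0.16 with progesterone, 0.73 and 0.78 with RU-486 and 1.01 and 0.91 with both. With the covariate their median was 0.69 against 0.75 without it, and 18 of the 27 stayed past 1.5-fold. Among the lower genes, values with and without the covariate were -0.65 and -0.85 for ABCA1, -0.86 and -1.15 for SLC39A10, -0.62 and -1.06 for DLGAP5, and -0.44 and -0.40 for SREBF1. It moved KIF11 from -0.92 to -0.43, DNAJC10 from -0.74 to -0.36, SLC30A1 from -0.38 to -0.19, HMOX1 from 0.64 to 0.37 and ETV5 from 0.44 to 0.28. The median of histones was -0.26 with it, that of the ATF4 list 0.30, that of the ERK feedback list 0.09 and that of G2/M genes -0.05, beside 0.02 over all genes. The 676 lower genes also differed in build from the average gene. Their median gene length was 68.1 kb against 24.5 kb over all genes, they included 48 of the 439 ZNF zinc finger genes (10.9%) and 11 of 33 centrosomal CEP genes (33.3%), where 3.67% of all genes were in the set, and they made up 7.83% of genes with a mean level of 8 to 9 but 1.51% of those above 11.

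**Figure D5:**
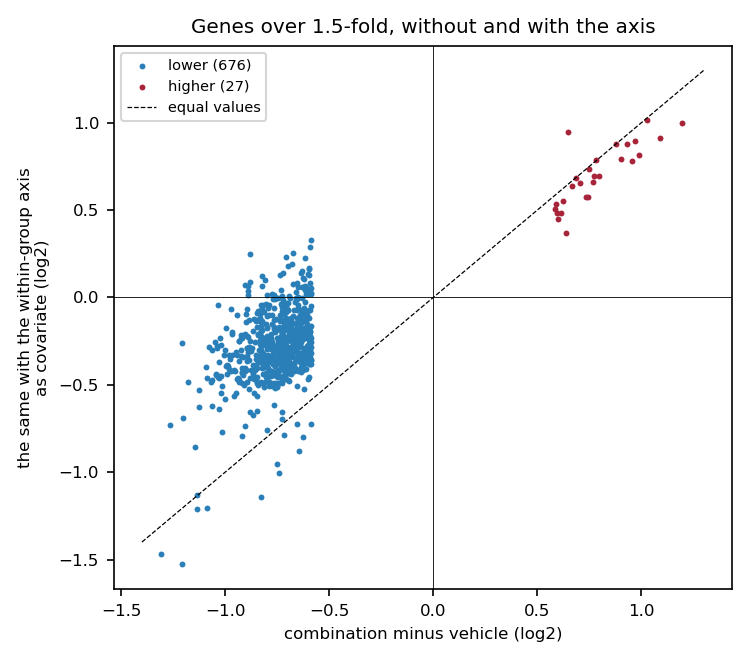
Difference between combination and vehicle (log2, horizontal axis) and the same difference with the within-group score as covariate (vertical axis) for the 27 higher (red) and 676 lower genes (blue). Higher genes lie nearer the dashed line of equal values, and 18 of the 27 stay past 1.5-fold. Most lower genes lie between that line and 0.

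Which of the differences the combination shared with a single steroid was asked next. The single-steroid comparisons use the same vehicle arrays, so their values are given side by side, and the direct contrasts carry the test. RU-486 alone against vehicle gave 0.80 for CHAC1, 1.00 for ASNS, 0.89 for CPT1A, 0.97 for SLC6A9 and 0.98 for NUPR1, where progesterone alone gave -0.16, -0.26, -0.10, -0.01 and -0.05. The medians over the ATF4 list were 0.33 for the combination, 0.20 for RU-486 and -0.09 for progesterone. In 18 of its 23 genes (78.3%) all 4 arrays with RU-486 lay above all 4 without it, compared with 4.5% of all genes, and 0 were lower in that way (1.09% of all genes). Left out 1 at a time, the arrays gave 18 or 19 genes, with 5.08% to 13.4% of all genes. Of the 27 genes over 1.5-fold higher, 19 showed this split by RU-486, and of the 676 lower genes 22 showed the opposite one, with all RU-486 arrays below. By progesterone the same counts were 0 and 13. Both sets were chosen for combination arrays apart from vehicle arrays, which fixes part of such a split.

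Set directly against RU-486 alone, the combination had 0 genes (0%) past a limma adjusted p of 0.05, the smallest being 0.769, with 874 genes at an unadjusted p under 0.05. CHAC1 differed by 0.17 (95% interval -0.05 to 0.40), ASNS by 0.03 (-0.26 to 0.31), CPT1A by 0.20 (-0.09 to 0.50) and ABCA1 by -0.20 (-0.53 to 0.12). The intervals leave room for differences in both directions. All 15 higher genes of the plot of named genes had a higher mean in the combination than with RU-486 alone, by 0.01 to 0.32. Of the 15 lower genes 12 had a lower mean than with RU-486 alone, and the differences ran from -0.71 to 0.15. The combination arrays entered the choice of those genes, so this is a description. Among the 15 higher genes SESN2 stood furthest apart, at 7.85 and 7.92 with RU-486 and 8.30 and 8.10 in the combination (0.32, interval 0.10 to 0.54).

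The genes with the smallest p in that direct contrast were others. Higher in the combination than with RU-486 alone were CASZ1, a zinc finger factor, at 0.43 ± 0.10 and PLEKHO1 at 0.38 ± 0.08. ZSWIM3 stood at 0.34 ± 0.08 and BRPF3, a chromatin reader, at 0.33 ± 0.08. DQX1 was higher too, but its RU-486 arrays lay within the background, so no size of its difference is given. Lower were ECHDC1 at -0.71 ± 0.18 and LTV1, a ribosome assembly factor, at -0.64 ± 0.15. DCPH1 stood at -0.45 ± 0.11 and the receptor ROR1 at -0.42 ± 0.11. ZNF487 was lower too, but its combination arrays lay within the background, so no size of its difference is given. ECHDC1 measured 10.71 and 10.86 with RU-486 against 9.94 and 10.22 in the combination. ZNF487 measured 6.70 and 6.77 with RU-486 and 6.75 and 6.50 with progesterone, but 6.09 and 6.16 in the combination, close to 5.99 and 6.27 in vehicle. The limma adjusted p was 0.769 for all 10.

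Set directly against progesterone alone, the combination again had 0 genes (0%) past the threshold, with a smallest limma adjusted p of 0.0777 and 2686 genes at an unadjusted p under 0.05. ASNS was higher by 1.28 (95% interval 1.00 to 1.57), CPT1A by 1.20 (0.90 to 1.49), CHAC1 by 1.13 (0.90 to 1.36), SESN2 by 0.88 (0.66 to 1.10) and SLC25A20 by 0.77 (0.59 to 0.96). ABCA1 was lower by 0.83 (interval -1.16 to -0.51), SREBF1 by 0.40 (-0.58 to -0.21), SEMA6D by 0.76 and DLGAP5 by 1.26, and PCDHB18P, a protocadherin pseudogene, by 0.54. Over the 15 higher named genes the median difference from vehicle was 0.78 in the combination and -0.10 with progesterone alone. The combination arrays entered the choice of those genes. The count of genes past the threshold depended on which progesterone replicate was left out. Such a fit leaves that group a lone array with no spread of its own, so its count is not given.

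Some small nucleolar and Cajal body RNAs, which guide chemical modification of ribosomal and spliceosomal RNA, were low on the arrays with progesterone. SNORD116-26, from an imprinted cluster of repeated copies, measured 7.72 and 7.62 in vehicle and 6.12 and 6.61 in the combination, lower by 1.31 ± 0.20 (limma adjusted p = 0.374). It was 7.01 and 6.54 with progesterone alone but 7.41 and 7.58 with RU-486 alone, so the arrays with progesterone lay below those without it. SNORA41 measured 6.59 and 6.27 in vehicle, 5.78 and 5.64 with progesterone, 6.21 and 6.48 with RU-486, and 5.62 and 5.80 in the combination, so that its arrays with progesterone lay within the background. Set directly against RU-486 alone, the combination was lower by 1.13 (95% interval -1.60 to -0.66) for SNORD116-26. SNORA41 was lower too, but no size is given because its combination arrays lay within the background. Both were named for a small p between combination and vehicle, so the combination arrays entered their choice. No gene of the contrast with RU-486 had a limma adjusted p under 0.769.

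Of the 192 small nucleolar and Cajal body RNA genes measured, 29 (15.1%) had all 4 arrays with progesterone below all 4 without it, compared with 0.836% of all genes, and 0 had them above (2.02% of all genes). Over the 192 genes, 132 had a vehicle or combination mean above the background. Among the 29 were SNORD116-25, SNORD82 and SCARNA1, chosen here after their values were seen. Their differences between combination and vehicle were -1.14, -1.01 and -1.21. Without combination replicate 1 that of SNORD116-25 was -0.72. The combination means of SNORD82 and SCARNA1 lay within the background. SNORD116-28, SNORA58 and SNORA46, also among the 29, lay within it on all 8 arrays. The other 163 did not split in this way, and SNORA60, SNORD30 and SCARNA7 were among the 27 genes over 1.5-fold higher. Leaving out 1 array at a time gave 31 to 45 such genes, with 1.16% to 7.91% of all genes, the highest without progesterone replicate 2. Against vehicle the list as a whole had a median of -0.04 in the combination, -0.19 with progesterone and 0.03 with RU-486, and 15 members were higher and 26 lower in the combination at an unadjusted p under 0.05. Copies of the SNORD116 cluster are near-identical, and their probe sets may measure common RNA.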

How the data were processed

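The authors deposited log2 values of 33297 probe sets on 8 arrays of total RNA. RMA, oligo and limma are named, per the submitters' processing notes. RMA equalises arrays, so a shift shared by most genes is removed, and differences of dim genes are compressed. Versions and filters are not given in the sources used here. A single gene symbol was given for 19460 probe sets, several for 1754 and none for 12083 (19429 matched a RefSeq gene). For 769 genes with several, that of highest mean was kept, and no dim gene was dropped. Probe sets with several symbols or none gave 0 calls in a separate limma fit, with 762 at an unadjusted p under 0.05. Some genes are not analysed here.

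Group means were fitted with limma 3.58.1 (lmFit, eBayes) in R 4.3.3 over all 8 arrays (4 residual degrees of freedom), with Benjamini-Hochberg adjustment over 18417 genes. Intervals use the same SE. No set was tested. The members and lists were chosen with earlier results of these data known. Named genes are the 15 smallest p each way among genes without overlap and above background, without small RNA and uncharacterised genes, the 5 smallest each way in the direct contrasts, up to 4 members of each list and the steroid receptors. Other list members named, and the counts of arrays split by steroid, were chosen after values were seen. The code was tested on simulated data. Alternatives were the arrays fitted, a replicate block, normalisation, probe set choice, background filter, array weights, trend, the within-group score and leaving out each array.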

Additional observations from a re-analysis of the deposited data

How the results depend on the processing

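Between combination and vehicle 0 genes passed in most settings, each array left out included (0 to 0), but with array quality weights 7 passed (CHAC1, CPT1A, SLC25A20, SLC6A9, NUPR1, MST1 and MIR100, the last in the background and MST1 there in vehicle). The replicate numbers were not established as pairs: replicate differences of the groups correlated at 0.20 to 0.51 over genes, with 2 numbers only, and with the replicate block 1 gene passed, SLC39A10 (limma adjusted p = 0.0426). The count at an unadjusted p under 0.05, 2432, was 4056 on the 4 arrays alone, 4712 without the progesterone group, 4515 with array weights and 613 to 4712 with 1 array left out. The 27 genes over 1.5-fold higher were 174 over all probe sets and 27 to 65 with 1 array left out, and the 676 lower were 1104, 38 with the within-group score and 198 to 1061. Against progesterone, 17 genes passed with an intensity trend and robust prior and 17 with the score, and 0 to 1090 with 1 array left out. Against RU-486 0 passed throughout (0 to 0). A lone array was assumed to vary like the other groups. The cause of these shifts was not tested. Signals near the background limit dim genes.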

Other observations

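Lists not described above stayed mostly near the median of all genes, 0.07, in the combination against vehicle, and none of their members passed the adjusted limma test. At an unadjusted p under 0.05, 5 of 23 immediate early genes were higher and 1 lower (median 0.10). MYC, the growth-promoting transcription factor, was higher by 0.37 ± 0.13, and EGR1 was lower by 0.64 ± 0.18, from 10.64 and 10.50 in vehicle to 9.78 and 10.08. EGR1 stood at -0.65 with RU-486 alone and -0.40 with progesterone alone against the same vehicle arrays. Growth factors and receptors of glioma split, with VEGFA and the growth factor PDGFA, at 0.29 ± 0.11, on the higher side and TGFB2, at -0.53 ± 0.14, and FGF2, at -0.51 ± 0.17, on the lower side (4 higher and 3 lower of 30, median 0.10). Without combination replicate 1, PDGFA stood at 0.16, PLXNA2, a plexin receptor, at 0.30 and the transcription factor MITF at -0.30. With the within-group score as covariate, MYC stood at 0.23, TGFB2 at -0.34, FGF2 at -0.29, SEMA3C at -0.42, MDM2 at -0.42 and CHORDC1 at -0.43. Semaphorins, plexins and neuropilins had 4 higher and 2 lower of 28 (median 0.14), with PLXNA2 at 0.46 ± 0.14 and the ligand SEMA3C at -0.87 ± 0.28. In the p53 list (2 higher and 5 lower of 22, median 0.03) SESN2 was on the higher side and MDM2, which degrades p53, was lower by 0.71 ± 0.19. Lysosome and autophagy genes had 5 higher and 1 lower of 28 (median 0.07), led by WIPI1, an autophagosome protein, at 0.41 ± 0.10, with MITF at -0.46 ± 0.14. ABCC3, a drug exporter, was higher by 0.41 ± 0.08 in a list of xenobiotic targets and transporters with 3 higher and 0 lower of 15 (median 0.08). Heat shock genes had 0 higher and 3 lower of 18 (median -0.05), among them the cochaperone CHORDC1 at -0.69 ± 0.17.

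The remaining lists are given as higher and lower members at an unadjusted p under 0.05 and their median. Interferon-stimulated genes had 1 and 2 of 30 (0.04), matrix, integrin and metalloproteinase genes 1 and 3 of 36 (0.08), apoptosis regulators 2 and 3 of 27 (0.02) and hypoxia and glycolysis genes 1 and 1 of 28 (0.07). Circadian clock genes had 3 and 2 of 20 (0.06), alpha-arrestins and sugar-sensing factors 1 and 1 of 8 (0.13), NF-kappaB targets and cytokines 2 and 0 of 22 (0.10), TGF-beta targets 1 and 1 of 18 (0.04) and steroid metabolism genes 1 and 0 of 25 (0.09). Proteasome subunits had 0 and 2 of 28 (0.03), cytosolic ribosomal proteins 0 and 0 of 66 (0.01) and respiratory complex I and ATP synthase genes 1 and 0 of 51 (0.01). Astrocyte and glioma markers had 2 and 0 of 10 (0.01), neuron markers 2 and 1 of 5 (0.10), oligodendrocyte markers 1 and 0 of 5 (0.09), and microglia, endothelium and epithelium markers 0 and 0 of 7, 5 and 5 (0.16, 0.08 and 0.08). ZNF zinc finger genes had 19 and 47 of 439 (-0.04), clustered protocadherins 3 and 1 of 29 (0.07), microRNA genes 9 and 5 of 189 (0.06) and olfactory receptors 23 and 4 of 341 (0.06).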
